A study of Mus musculus with 4 samples.

Results

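Insulin and the insulin-like growth factors (IGFs) signal through a small family of receptors, docking proteins and secreted binding proteins, and 10 genes of this family were followed in heart muscle cells after pressure overload. They were the ligands Igf1 and Igf2, the receptors Igf1r, Insr and Igf2r, the docking proteins Irs1 and Irs2, and the binding proteins Igfbp4, Igfbp5 and Igfbp7. The genes were taken by symbol, and each had exactly 1 row among the 22322 genes of every library. All 10 passed the filter on low counts and were among the 12499 genes tested.

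Cardiomyocytes were isolated from hearts of male mice by Langendorff perfusion, in which enzymes are run through the coronary vessels to free single cells. The sham group (sham 1 and sham 2) had a control operation, and the TAC group (TAC 1 and TAC 2) had transverse aortic constriction, which narrows the aorta and loads the left ventricle. The mice were 2 months old at operation and hearts were examined 14 weeks later; the methods of the study also give 14 weeks as the age of the mice at isolation, so the age at collection is not settled. Each library held part of the myocytes of 1 heart. The operation was done under ketamine and xylazine anaesthesia, and the sources used here give no strain or genotype for either group. Values below are given in the order sham 1, sham 2, TAC 1, TAC 2, or with the first and second library of a group in that order.

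Igf1 and Igf2 bind the IGF-1 receptor, insulin binds the insulin receptor, and both receptors are tyrosine kinases that phosphorylate the docking proteins Irs1 and Irs2. These recruit PI3 kinase and so activate AKT and mTOR, which control growth, glucose uptake and protein synthesis, a route known for its part in physiological growth of heart muscle. Igf2r carries Igf2 to the lysosome for breakdown, and the IGF-binding proteins hold ligands outside the cell and set how much of them reaches the receptors.

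The libraries held 24237777 to 32118323 counts, and mitochondrial genes took 39.84% to 40.85% of them in sham 1, sham 2 and TAC 2 but 47.42% in TAC 1. Cardiomyocyte markers were abundant in all libraries, with a summed level of 85820 to 95100 CPM (counts scaled to a common library size with TMM factors) over 12 genes. None of the 12 was called in the edgeR quasi-likelihood test, beside 5.01% of all genes tested. At an unadjusted p under 0.05 in that test there were 5, beside 27.5% of all genes, and DESeq2 called 5, beside 7.4% of all genes. Markers of the other cells of the heart were also present, and none was at 0. Summed over 13 endothelial genes the level was 765, 607, 360 and 510 CPM. Over 14 fibroblast genes it was 339, 244, 148 and 200.2 CPM, over 15 macrophage genes 172, 86.9, 47.7 and 87.6 CPM, and over 12 mural (pericyte and smooth muscle) genes 788, 820, 455 and 600 CPM. Abcc9, a subunit of a potassium channel that cardiomyocytes also express, made up 48.2% to 61.3% of the mural sum, and without it the sum was 408, 414, 176 and 297 CPM. TAC 1 was lowest for each of these 4 lists, with or without Abcc9. In these bulk samples fewer cells of a type and less RNA per cell cannot be told apart.

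A feature that several of the genes share is a match to the seed of the let-7 microRNAs, which the study examined in the same model. MicroRNAs pair through bases 2 to 8 (the seed) with 3′UTRs, and the mature let-7f sequence is shown first, with its seed in capitals (RefSeq, GRCm38.p6).
mmu-let-7f-5p: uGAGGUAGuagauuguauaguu
The complement of this seed, CTACCTC, was searched on the transcribed strand of the longest annotated 3′UTR of each gene (GENCODE M21, mm10). It was found 7 times in 6 of the 10 genes, and all 3 receptors carried it. The stretches that hold it are shown 5′ to 3′ on the transcribed strand, with the match in capitals.
Igf1, chr10:87932080-87932102, plus strand: aatatgtcatctacCTACCTCaa
Igf1r, chr7:68229111-68229133, plus strand: tttcaaacatttatCTACCTCac
Igf1r, chr7:68233217-68233239, plus strand: ttgccagagttcatCTACCTCtg
Insr, chr8:3153197-3153219, minus strand: cttctcagtacagtCTACCTCag
Igf2r, chr17:12683035-12683057, minus strand: acctgctccgtgccCTACCTCat
Irs2, chr8:10986527-10986549, minus strand: aaactaccacagtcCTACCTCag
Igfbp5, chr1:72859678-72859700, minus strand: ttccccaggtcagcCTACCTCcc

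Of 12383 tested genes with an annotated 3′UTR, 10.7% held the same letters, but most of the 6 genes have long 3′UTRs. Among genes with a 3′UTR of 0.8 to 1.25 times the length, the share was 33.8% for Igf1 (6308 bases), 37.8% for Igf1r (7267 bases), 25.9% for Insr (4747 bases), 9.79% for Igf2r (1304 bases), 14.2% for Irs2 (2329 bases) and 24.3% for Igfbp5 (4445 bases). An A followed the match in 5 of the 7 stretches, those of Igf1, Insr, Igf2r and Irs2 and the first of Igf1r. No match to all 7 letters was found in Igf2, Irs1, Igfbp4 or Igfbp7, whose 3′UTR has 240 bases. For these genes the share among genes with a 3′UTR of similar length was 16.3% (Igf2), 24.7% (Irs1), 15.2% (Igfbp4) and 2.12% (Igfbp7). The seed letters of other microRNAs that the study followed were found in 7 of the 10 genes for miR-16 (TGCTGCT, 25.4% of all genes), 1 for miR-200b (CAGTATT, 16% of all genes), 3 for miR-92a (GTGCAAT, 7.8% of all genes) and 2 for miR-24 (CTGAGCC, 19.6% of all genes). Among genes with a 3′UTR of similar length these shares were larger for most of the genes with a match. They were 24.7% (Igf2r) to 68.1% (Igf1r) for miR-16 and 13.4% (Igf2r) for miR-200b. For miR-92a they were 18.7% (Igfbp5) to 25.3% (Igf1r), and for miR-24 they were 31.5% (Igfbp4) and 40.5% (Igfbp5). For genes without a match they ran from 4.76% (Igfbp7) to 56.1% (Irs1) for miR-16 and from 3.04% (Igfbp7) to 51.7% (Igf1r) for miR-200b. The same range was 1.19% (Igfbp7) to 22.6% (Igf1) for miR-92a and 4.37% (Igfbp7) to 49.7% (Igf1r) for miR-24. The sites that the study proved in Rbfox2 for let-7 (UACCUCA), miR-92a (UGCAAUA) and miR-24 (UGAGCC) do not hold the letters searched here. Sites of such other forms were not searched, so a gene without a match may still hold one. A match is a description of letters, and microRNA levels were not analysed here.

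**Figure D1:**
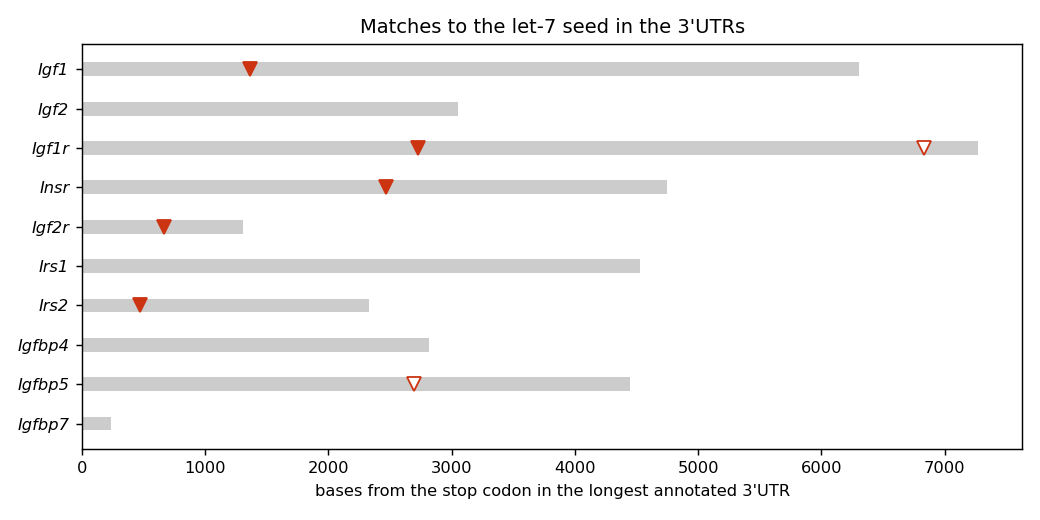
Matches to the let-7 seed in the longest annotated 3′UTR of each gene, with the bar length giving the 3′UTR in bases and triangles giving match positions counted from the stop codon. Filled triangles mark the 5 matches followed by an A, open triangles the other 2, and Igf1r alone has more than 1 match.

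In TAC libraries 1 of the 10 genes rose and 1 fell. Igfbp5 was 2.085-fold higher and Igfbp7 was 0.667-fold its sham level, both past a Benjamini-Hochberg adjusted p of 0.05 in edgeR. Over all 12499 genes tested, 5.01% were called, 2.58% higher and 2.43% lower. With both TAC libraries beyond both sham libraries there were 7 of the 10 genes (3 above and 4 below), a share near the 60.1% of all genes tested. At an unadjusted p under 0.05 there were 6 of the 10, where all genes gave 27.5%. The median log2 fold change was 0.14 over the 10 genes and −0.01 over all tested. For 1 gene alone, 2 libraries against 2 allow no exact permutation p below 0.333, so the p-values rest on the spread that edgeR pools over genes.

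**Figure D2:**
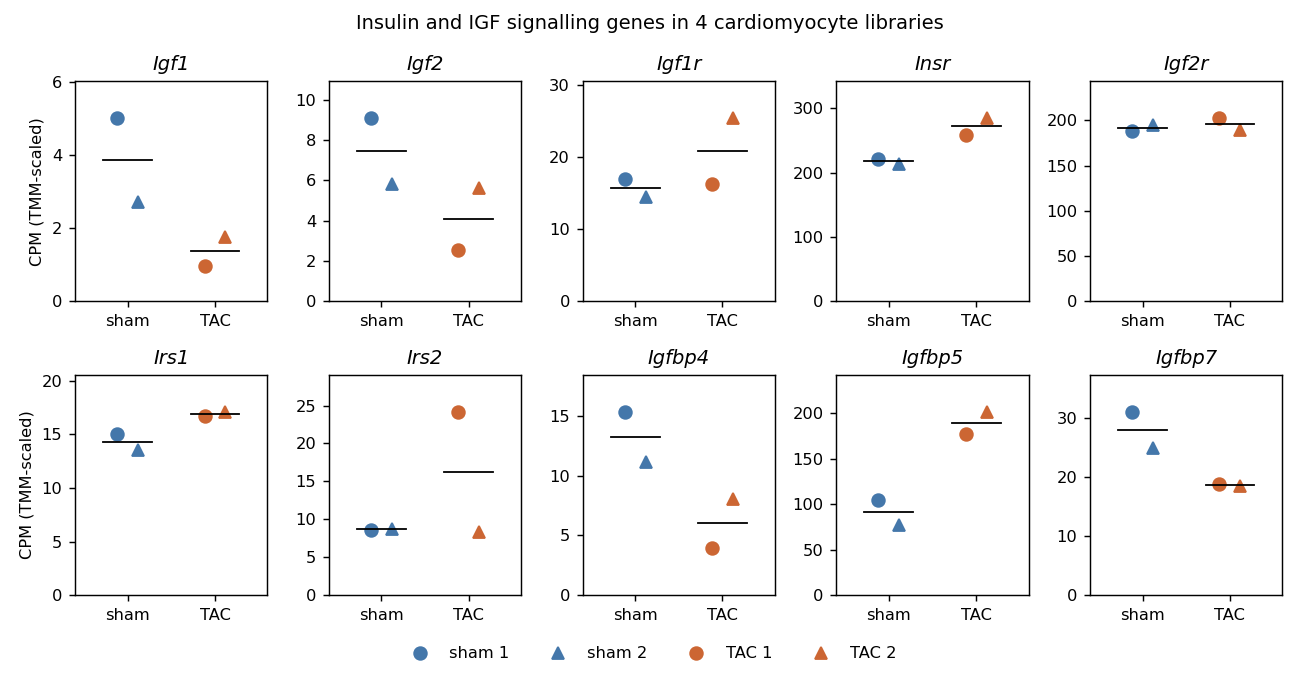
Level of each gene in CPM (TMM-scaled, linear axes from 0, a scale of its own for each gene) in the 2 sham and 2 TAC libraries, with a line at the group mean. Both TAC libraries lie above both sham libraries for Igfbp5, Insr and Irs1 and below for Igf1, Igf2, Igfbp4 and Igfbp7, and Irs2 is high in TAC 1 alone.

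Per transcript length, as FPKM deposited by the authors, levels differed widely among the 10 genes. In sham libraries the order of mean FPKM was Igfbp7 (26.9), Insr (26.8), Igf2r (23.0), Igfbp5 (16.2), Igfbp4 (5.62), Igf2 (2.09), Irs1 (1.67), Igf1r (1.48), Irs2 (1.46) and Igf1 (1.19). The values of Igfbp7 and Insr overlapped between libraries, as did those of each neighbouring pair from Igf2 to Irs2. In TAC libraries the order was Igfbp5 (29.8), Insr (29.2), Igf2r (20.6), Igfbp7 (15.7), Igfbp4 (2.71), Irs2 (2.33), Igf1r (1.75), Irs1 (1.74), Igf2 (1.24) and Igf1 (0.355). Igfbp5 overlapped with Insr, and neighbours from Igfbp4 to Irs1 overlapped. Igfbp5 moved from rank 4 in sham to rank 1 in TAC, and Igfbp7 from rank 1 to rank 4. The transcript length implied by count and FPKM varied between libraries for Igf1 (2539 to 4670 bases), Igf2 (2279 to 3842 bases) and Igfbp4 (1835 to 3491 bases), so that the FPKM values of these genes are less comparable between libraries than their counts.

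Igf1 (chr10:87858265-87937042, plus strand), the growth factor that is the main activator of the IGF-1 receptor, had the lowest level of the 10 genes. It overlaps Igf1os on the opposite strand by 5117 bases. It gave 159 and 78 counts in the sham libraries and 27 and 43 in the TAC libraries. These correspond to 5.03, 2.71, 0.968 and 1.76 CPM, so both TAC libraries lay below both sham libraries. On the log2 scale TAC differed from sham by −1.52 ± 0.40 (SE), with a 95% interval of −2.45 to −0.59 and an edgeR adjusted p of 0.0699, which misses the threshold. The adjusted p was 0.0173 in DESeq2, and over the 10 alternatives it ranged from 0.0047 to 0.24, with log2 fold changes of −1.99 to −0.70. It passed the threshold without sham 2 (−1.89, adjusted p 0.0108) and without TAC 2 (−1.99, adjusted p 0.0281), and was at −0.999 without sham 1 (adjusted p 0.24).

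Igf2 (chr7:142650766-142666816, minus strand), the fetal IGF expressed from the paternal allele, was also low. Its level was 9.10 and 5.84 CPM in sham and 2.55 and 5.60 CPM in TAC. TAC 2 lay just under sham 2, and TAC 1 stood apart from both. A log2 fold change of −0.89 ± 0.36 (SE) had a 95% interval of −1.73 to −0.05 and an edgeR adjusted p of 0.165. Without TAC 1 it was −0.42 (adjusted p 0.473) and without TAC 2 it was −1.55 (adjusted p 0.0163). Igf2 overlaps Gm49394 on the same strand over nearly its whole span (16048 of 16051 bases) and Igf2os on the other, and reads these genes share cannot be told apart.

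Within a library the ligand could be set against its receptor, a pair chosen with earlier results of these data known. The ratios therefore describe the same differences as the fold changes of Igf1 and Igf1r and do not show which gene changed. Igf1 FPKM was 0.779 and 0.841 times Igf1r FPKM in sham 1 and sham 2, against 0.145 and 0.236 times in TAC 1 and TAC 2. The sham ratios were thus both above the TAC ratios. On counts the log2 ratio of Igf1 to Igf1r was −1.75, −2.42, −4.07 and −3.86. It was again lower in both TAC libraries.

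Insr (chr8:3122061-3279617, minus strand), the insulin receptor, was among the best expressed of the 10 genes. Its level was 222 and 214 CPM in sham and 259 and 285.5 CPM in TAC. Both TAC libraries were above both sham libraries, and the spread within each group was small. TAC exceeded sham by 0.32 ± 0.08 (SE; 95% interval 0.14 to 0.51) on the log2 scale, with an edgeR adjusted p of 0.0603 that misses the threshold and a DESeq2 adjusted p of 0.0173. Scaling by total counts moved the median of all genes to −0.20, and there Insr stood at 0.14 (adjusted p 0.591).

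Igf1r (chr7:67952827-68233668, plus strand), the IGF-1 receptor, was weakly expressed beside it. It measured 16.9, 14.5, 16.3 and 25.5 CPM. TAC 1 lay between the sham libraries and only TAC 2 was higher. A log2 fold change of 0.41 ± 0.20 (SE) had a 95% interval of −0.06 to 0.88 and an edgeR adjusted p of 0.236, and it was 0.06 without TAC 2 and 0.70 without TAC 1, where the adjusted p was 0.0434. Per transcript length, Igf1r was at 0.0599, 0.0501, 0.0494 and 0.0675 times Insr, so the insulin receptor transcript was the more abundant in every library and the groups overlapped.

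Igf2r (chr17:12682406-12769664, minus strand), the receptor that removes Igf2 and sorts lysosomal enzymes, had 188 and 194 CPM in sham and 203 and 189 CPM in TAC. The values overlapped between groups. Airn runs through 28354 bases of the gene on the opposite strand. TAC stood at 0.04 ± 0.07 (SE) on the log2 scale against sham, with a 95% interval of −0.14 to 0.21. The edgeR adjusted p was 0.788, and the sign turned under total-count scaling (−0.15), under both fits on FPKM (−0.15) and without TAC 1 (−0.02).

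Irs1 (chr1:82233101-82291416, minus strand) and Irs2 (chr8:10984681-11008458, minus strand) dock PI3 kinase to both receptor kinases. Irs1 measured 15.0 and 13.6 CPM in sham and 16.8 and 17.1 CPM in TAC. The groups did not overlap on this scale, but the log2 fold change of 0.25 ± 0.11 (SE; 95% interval −0.01 to 0.50) had an edgeR adjusted p of 0.196. Under total-count scaling it was 0.06 (edgeR adjusted p 0.8745). Irs1 FPKM overlapped between groups, at 1.80 and 1.54 in sham and 1.59 and 1.89 in TAC. Part of Irs1 is covered by Gm9747 on the opposite strand over 2822 bases, and Irs1 counts were not whole numbers (390 to 475), so reads of the pair cannot be told apart where they overlap.

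Irs2 was the gene with the most uneven TAC libraries. It had 8.60 and 8.72 CPM in sham, 24.2 CPM in TAC 1 and 8.34 CPM in TAC 2. TAC 1 was thus well above the other 3 libraries, while TAC 2 was the lowest of all. For TAC against sham the log2 fold change was 0.92 ± 0.41 (SE; 95% interval −0.04 to 1.87; edgeR adjusted p 0.195), and without TAC 1 it was −0.05 (adjusted p 0.908). Without TAC 2 it was 1.49 (adjusted p 0.000708). Irs2 FPKM was 0.828 and 0.929 times Irs1 FPKM in sham, 2.09 times in TAC 1 and 0.704 times in TAC 2.

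Igfbp5 (chr1:72857932-72874884, minus strand), a secreted protein that binds IGFs and the extracellular matrix, rose. Its level was 104.7 and 77.2 CPM in sham and 177.6 and 201.8 CPM in TAC, on 2220 to 4953 counts. Both TAC libraries were well above both sham libraries. Its log2 fold change was 1.06 ± 0.14 (SE), with a 95% interval of 0.73 to 1.39 and an edgeR adjusted p of 0.0121. It stayed past the threshold without any 1 library (0.863 to 1.299) and in DESeq2, and its adjusted p was 0.0617 in both fits of limma on log2(FPKM + 1) and log2(FPKM + 0.1).

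Igfbp7 (chr5:77349240-77408041, minus strand), a secreted protein with low affinity for IGFs that is known from vessel walls, fell. On the opposite strand it overlaps Polr2b by 85 bases and Gm34648 by 7085 bases. It measured 31.1 and 25.0 CPM in sham and 18.9 and 18.6 CPM in TAC. The TAC libraries lay close together and below both sham libraries, where the summed endothelial markers were also lower (360 and 510 CPM against 765 and 607). The log2 fold change was −0.58 ± 0.12 (SE; 95% interval −0.87 to −0.30) with an edgeR adjusted p of 0.0443. The call was lost without sham 1 (−0.42, adjusted p 0.129) and without TAC 1 (−0.60, adjusted p 0.0961), and it ended with adjusted p of 0.0502 and 0.0514 in the limma fits on FPKM.

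Igfbp4 (chr11:99041244-99054392, plus strand), which binds IGFs until it is cleaved by the protease encoded by Pappa, had 15.4 and 11.2 CPM in sham and 3.98 and 8.06 CPM in TAC. Both TAC libraries were below both sham libraries, and TAC 1 was again the lowest. The log2 fold change was −1.15 ± 0.31 (SE; 95% interval −1.87 to −0.44) with an edgeR adjusted p of 0.0710. It passed the threshold in DESeq2 (adjusted p 0.00272), without sham 2 (−1.36, adjusted p 0.0151) and without TAC 2 (−1.74, adjusted p 0.00332), and was at −0.72 without TAC 1 (adjusted p 0.138). Over the 10 alternatives its adjusted p ran from 0.00202 to 0.192.

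The levels of the binding proteins were also set against each other within each library, for pairs picked with their fold changes known, so the ratios describe the same differences and do not show which gene of a pair changed. The log2 ratio of Igfbp5 to Igfbp7 counts was 1.75 and 1.63 in sham 1 and sham 2 and 3.24 and 3.44 in TAC 1 and TAC 2. The log2 ratio of Igfbp5 to Igfbp4 counts was 2.77 and 2.79 in sham and 5.48 and 4.65 in TAC. Neither pair of groups overlapped, and these ratios do not depend on how libraries were scaled. Per transcript length, Igfbp5 was at 0.625 and 0.573 times Igfbp7 in sham and at 1.75 and 2.02 times in TAC.

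**Figure D3:**
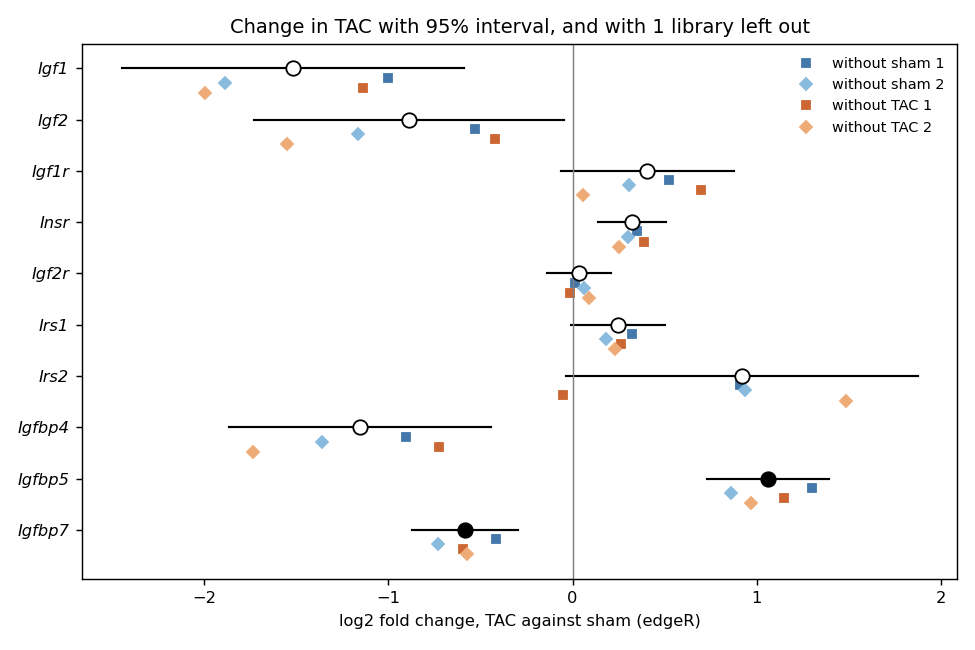
Log2 fold change of each gene, TAC against sham, in the edgeR fit (circles, filled where the adjusted p is under 0.05) with its 95% interval (lines) and the values with 1 library left out (small squares and diamonds). Igfbp5 stays between 0.863 and 1.299 and Igfbp7 between −0.73 and −0.42, while Irs2 runs from −0.05 without TAC 1 to 1.49 without TAC 2.

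Igf1, Igf2, Igfbp4 and Igfbp7, the genes below sham in both TAC libraries, are also expressed by other cells of the heart, whose markers were set beside them. All 54 endothelial, fibroblast, macrophage and mural genes had a log2 fold change below 0, with a median of −0.76, and 8 were called lower (14.8%, beside 2.43% of all genes tested) and 0 higher by edgeR. Without Abcc9 these were 7 of 53 (13.2%), with a median of −0.78. The called ones were the endothelial genes Cdh5, Egfl7 and Esam, the fibroblast genes Dcn, Lum and Dpt, and the mural genes Pdgfrb and Abcc9. The medians by list were −0.63 for endothelial, −0.83 for fibroblast, −0.85 for macrophage and −0.77 for mural genes (−0.85 without Abcc9). Of the 15 macrophage genes edgeR called 0, and DESeq2 called 1, beside 7.4% of all genes. At an unadjusted p under 0.05 in edgeR there were 7 of them, beside 27.5% of all genes. Without TAC 1, 1 of the 54 was called lower (2.34% of all genes called in either direction), and without TAC 2 there were 39 (10.3% of all genes).

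Set against these markers within each library, Igfbp7 was at 4.07% and 4.12% of the summed endothelial level in sham and at 5.24% and 3.64% in TAC. The groups overlapped on this scale. Igf2 was at 1.19% and 0.962% of it in sham and at 0.706% and 1.10% in TAC, which also overlapped. Igf1 was at 1.48% and 1.11% of the summed fibroblast level in sham and at 0.654% and 0.879% in TAC, and Igfbp4 was at 4.54% and 4.58% of it in sham and at 2.69% and 4.02% in TAC. For these pairs the TAC values were below the sham values. Against the macrophage sum, however, Igfbp4 was at 8.95% and 12.9% in sham and at 8.35% and 9.20% in TAC, and against the mural sum without Abcc9 at 3.77% and 2.70% in sham and at 2.26% and 2.71% in TAC, so the groups overlapped. Igf1 was lower in both TAC libraries against each of the sums, and Igf2 and Igfbp7 overlapped against each. Igfbp5 went the other way, from 30.9% and 31.6% of the summed fibroblast level in sham to 120% and 101% in TAC, and was above sham against each sum. The part of these cells in the levels of Igf1, Igf2, Igfbp4 and Igfbp7 was not tested.

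**Figure D4:**
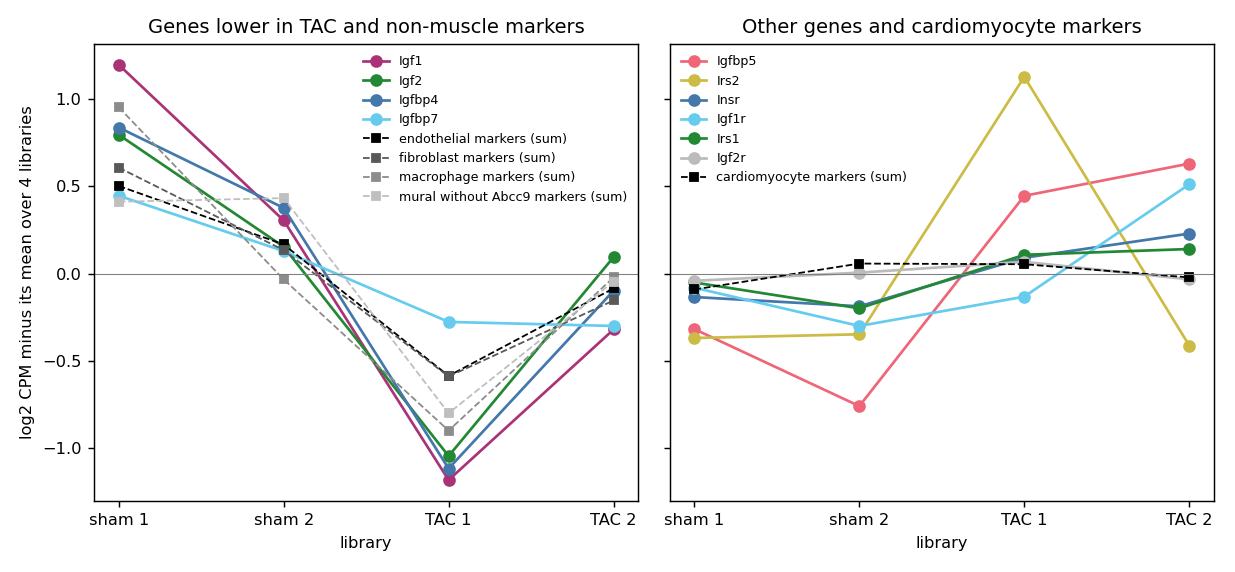
Log2 CPM of each gene, and of the summed markers of each cell type (dashed), minus its own mean over the 4 libraries. Left, Igf1, Igf2 and Igfbp4 and the 4 non-muscle marker sums (mural without Abcc9) are lowest in TAC 1, whereas Igfbp7 is about equal in TAC 1 and TAC 2. Right, the cardiomyocyte marker sum stays near 0, as does Igf2r, while Igfbp5 is above 0 in both TAC libraries and Irs2 in TAC 1 alone.

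The profile over the 4 libraries was compared with those of 103 pathway and marker genes at 5 CPM or more, by the root mean square distance of log2 CPM after each gene's mean was removed. Closest to Igf2 was Cldn5, a tight junction gene of endothelial cells (distance 0.0444). Closest to Igfbp4 were Notch3 of mural cells (0.0867) and, at nearly the same distance, Dpt of fibroblasts (0.0870), and closest to Igfbp7 was Egfl7 of endothelial cells (0.0872). Igf2r was nearest to Tsc2 (0.0211), Insr to Rheb (0.0809) and Irs1 to Pdpk1 (0.0711), all genes of the PI3 kinase, AKT and mTOR route. Igf1r had no near neighbour (Ptpn1, 0.244), and neither had Igfbp5 (Ddit4, 0.268) or Irs2 (Ddit4, 0.437). Igf1 was under 5 CPM and was left out. The distances rest on 4 libraries that differ in depth and in marker levels, which all genes of a library have in common, and are descriptions only. Candidates came from the pathway and marker lists alone, so the kind of gene found nearest depends on that choice.

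Further genes of the route were followed as 4 lists, chosen for their place in the pathway with earlier results of these data known. Of 66 genes 52 were tested, 3 were higher and 4 lower in TAC (13.5% called, beside 5.01% of all genes tested), and the median log2 fold change was −0.05. The other 14 genes had at most 10 counts in any library.

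Among 16 other ligands, binding proteins and their proteases, 6 could be tested and edgeR called 0. At an unadjusted p under 0.05 in edgeR there were 3, beside 27.5% of all genes, and DESeq2 called 1, beside 7.4% of all genes. Their median log2 fold change was −0.27, and 4 genes, among them the insulin genes Ins1 and Ins2 and the binding protein gene Igfbp1, were listed at 0 in all libraries. The lowest value among genes at 5 CPM or more was that of Stc2, an inhibitor of the proteases that cleave Igfbp4, at 11.4 and 11.7 CPM in sham and 4.45 and 8.43 CPM in TAC. Its log2 fold change of −0.85 ± 0.26 (SE) had an edgeR adjusted p of 0.0958, and it was −0.45 without TAC 1 (adjusted p 0.210) and −1.37 without TAC 2 (adjusted p 0.00299). Igfals, which holds circulating IGF complexes together, was at −0.01 (adjusted p 0.980). Pappa had 1 to 6 counts per library and was not tested.

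Among 17 adaptors and negative regulators, 13 were tested, 1 rose and 2 fell (23.1% called). Grb10, an adaptor that binds the insulin and IGF-1 receptors and dampens their signal, was at 68.3 and 65.1 CPM in sham and 101 and 93.3 CPM in TAC. Its log2 fold change was 0.54 ± 0.08 (SE; edgeR adjusted p 0.0151). Socs3, a cytokine-induced inhibitor that also acts on the insulin receptor and its docking proteins, was at 19.5 and 9.35 CPM in sham and 3.59 and 5.64 CPM in TAC, a log2 fold change of −1.65 ± 0.36 (SE; edgeR adjusted p 0.0467). Gab1, a docking protein of several receptor kinases, fell by 0.37 on the log2 scale (edgeR adjusted p 0.0496). It missed the threshold in both limma fits on FPKM (adjusted p 0.104 and 0.109). Socs3 ran from −1.02 without sham 1 to −2.08 without sham 2, and missed the threshold without TAC 1 (−1.36, adjusted p 0.122), in DESeq2 (0.0608) and in both limma fits on FPKM (0.0678 and 0.0639). Gab1 missed it without sham 1 (adjusted p 0.195), sham 2 (0.0621) or TAC 1 (0.156) and under total-count scaling (0.0544). Grb10 kept its call without any 1 library but was at 0.35 under total-count scaling (adjusted p 0.116) and missed the threshold in both limma fits (0.155 and 0.161), and the median of the list was −0.05.

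Among 21 genes of PI3 kinase, AKT and mTOR, all were tested, 2 rose and 1 fell (14.3% called), and the median was −0.03. Ddit4, a stress-induced inhibitor of mTOR complex signalling, was at 6.86 and 5.53 CPM in sham and 17.0 and 11.7 CPM in TAC. Its log2 fold change was 1.21 ± 0.21 (SE; edgeR adjusted p 0.0260). Eif4ebp1, the repressor of cap-dependent translation that mTOR inactivates, was at 20.6 and 21.7 CPM in sham and 29.2 and 28.2 CPM in TAC, a log2 fold change of 0.44 ± 0.09 (SE; edgeR adjusted p 0.0423). Phlpp1, a phosphatase that removes an activating phosphate from AKT, fell by 0.47 ± 0.10 (SE) on the log2 scale (edgeR adjusted p 0.0437). Ddit4 was called in all 10 alternatives to the edgeR fit. In both limma fits on FPKM, Phlpp1 (adjusted p 0.123 and 0.129) and Eif4ebp1 (0.311 and 0.313) missed the threshold. Phlpp1 missed the threshold whichever library was left out (adjusted p 0.0510 to 0.131) and in DESeq2 (0.0521), and Eif4ebp1 missed it without sham 1 (0.136), sham 2 (0.0640) or TAC 1 (0.124) and under total-count scaling (0.25, adjusted p 0.294).

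Among 12 effectors of glucose use and FoxO factors, 1 fell (8.33% called) and none rose in edgeR, and the median was −0.06. Tbc1d4, which holds the glucose transporter GLUT4 inside the cell until AKT phosphorylates it, was at 100.2 and 111 CPM in sham and 81.6 and 76.9 CPM in TAC. Its log2 fold change was −0.41 ± 0.08 (SE; edgeR adjusted p 0.0372), and it missed the threshold in both limma fits on FPKM (adjusted p 0.0596 and 0.0605). Its relative Tbc1d1 was at −0.78 (adjusted p 0.110), and Pfkfb2, the heart enzyme that makes the activator of phosphofructokinase, was at 0.37 (adjusted p 0.0868). Tbc1d1 was at −0.45 without TAC 1 (adjusted p 0.340) and −1.19 without TAC 2 (0.0170). Pfkfb2 was at 0.22 without TAC 1 (adjusted p 0.317), 0.52 without TAC 2 (0.0152) and 0.18 under total-count scaling (0.400), while Tbc1d4 missed the threshold without sham 2 (adjusted p 0.0925), TAC 1 (0.0680) or TAC 2 (0.0572).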

How the data were processed

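RNA of isolated mouse cardiomyocytes was sequenced in 2 sham and 2 TAC libraries, grouped by title. Per gene and library, the authors deposited an expected count (estimated, not always whole) and an FPKM value. The submitters' processing notes name Bowtie2 2.2.8, StringTie 1.3.1 and mm10; the sources used here name neither the counting program nor its use of strand, so overlapping antisense genes cannot be told apart.

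Expected counts were rounded, filtered with filterByExpr, scaled by TMM and tested with glmQLFit and glmQLFTest (edgeR 4.0.16, R 4.3.3), TAC against sham, with Benjamini-Hochberg adjustment over 12499 genes and a threshold of 0.05. The standard error is the log2 fold change divided by the square root of F. Replicates differed by more than sampling noise (chi-square per degree of freedom 9.19 for sham, 31.3 for TAC). The script was tested on simulated data. Alternatives used DESeq2 1.42.0, limma 3.58.1 on log2(FPKM + 1) and log2(FPKM + 0.1), total-count scaling (the study's choice; TMM was preferred because mitochondrial shares differed), no filter, a replicate block, an adjusted p of 0.1 and each library left out. The labels give replicate numbers only; per the methods each sample came from 1 heart and mice formed pairs of sham and TAC, which no source ties to the numbers.

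The 10 genes, the lists and the rule for named genes were chosen with earlier results of these data known. Named were the 10 genes, called pathway genes, each list's largest rise and fall at 5 CPM or more, and nearest profiles. A gene that this rule names is not reported here.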

Additional observations from a re-analysis of the deposited data

How the results depend on the processing

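Igfbp5 was called higher in 8 of 10 alternatives and Igfbp7 lower in 6 of 10, and neither changed direction; the cause of the lost calls was not tested. Of the 10 insulin and IGF genes, 1 was called higher and 1 lower by edgeR. These counts became 3 and 4 without the low-count filter (16015 genes tested), 2 and 3 in DESeq2 and at an adjusted p under 0.1, and 0 and 0 in limma on log2(FPKM + 1) and log2(FPKM + 0.1). With 1 library left out they ran from 1 to 2 higher and from 0 (without sham 1 or without TAC 1) to 4 lower (without TAC 2). Of the pathway genes, 3 were higher and 4 lower. They became 1 and 3 under total-count scaling, 6 and 10 without the filter, 6 and 7 at an adjusted p under 0.1, 1 and 0 in both limma fits, and 2 to 5 higher and 0 to 6 lower with 1 library left out. Of the 54 markers of other cells 8 were lower, against 39 without the filter, 15 in DESeq2, 1 in both limma fits and 1 to 39 with 1 library left out. The share of all genes called moved too, from 5.01% to 4.22% under total-count scaling, 10.5% without the filter, 7.4% in DESeq2, 14.5% at an adjusted p under 0.1, 1.71% and 1.56% in the limma fits, and 2.34% (without TAC 1) to 10.3% (without TAC 2) with 1 library left out. The cause of these shifts was not tested.

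With the replicate number as a replicate block, 2 of the 10 genes were lower (Igfbp7 and Igfbp4, the latter at an adjusted p of 0.0453), 2 pathway genes were higher and 2 lower (Eif4ebp1, Gab1, Phlpp1 and Tbc1d4 lost their calls at adjusted p of 0.0680, 0.0814, 0.0724 and 0.0510, and Stc2 was called at 0.0469), and 14 markers were lower (4.53% of all genes called). The study describes pairs of sham and TAC mice, but no source ties the replicate numbers to them, and deviations of libraries with the same number correlated at −0.242. A block of crossed pairs (sham 1 with TAC 2), chosen after seeing the data, gave 2 higher and 4 lower of the 10 genes, 6 higher and 10 lower pathway genes and 39 lower markers, with 17% of all genes called. Where a library was left out, the lone sample of its group was assumed to vary like the other group. Leaving out Abcc9, also chosen after seeing the data, left 7 lower markers. Of the 10 genes, counts were lowest for Igf1, at 27 to 159 per library, which limits its values.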
